A study of Mus musculus with 6 samples.

Results

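The RNA sensing genes described here are 9 genes that detect double-stranded or foreign RNA in a mammalian cell, or carry that signal on. They are Ddx58 (RIG-I), Ifih1 (MDA5), Dhx58 (LGP2), Mavs, Trim25, Rnf135 (Riplet), Adar, Eif2ak2 (PKR) and Tlr3. They were taken by gene symbol from a table of 24421 genes, and all 9 were present and abundant enough to be tested. Total RNA was sequenced from 4T1-tetL1(GLucAI) cells, a population of the BALB/cfC3H mouse breast carcinoma line 4T1 in which a doxycycline-inducible LINE-1 (L1) retrotransposition reporter was stably integrated. The 3 untreated libraries, called vehicle in another label, were set against 3 libraries of cells kept in doxycycline at 400 ng/mL for 48 h. The question of the comparison was whether L1 induction changes the transcriptome, here the transcripts of the RNA sensing machinery. Whether this machinery senses L1 RNA was not tested.

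Cells of both groups carried the same cassette, with a constitutively expressed Tet-On 3G transactivator and an inducible bidirectional promoter that also drives firefly luciferase. Cells without the cassette were not among the groups, so effects of the drug and of L1 cannot be told apart. Groups follow the labels, since the transcript of the cassette was not analysed here. The study describes its libraries as biological triplicates. Library totals ran from 31653464 to 43631312 counts, and the ranges of the groups overlapped. All 5 epithelial markers examined exceeded 1 CPM (counts scaled to library depth) in every library, with a summed level of 1347 to 1485 CPM. The summed level of 6 leukocyte markers was 0.472 to 0.955 CPM, with Adgre1 at 0 throughout. The 6 fibroblast and endothelial markers summed to 0.245 to 0.784 CPM.

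As background, RIG-I and MDA5 are cytosolic helicases that bind viral or misplaced cellular RNA and then join MAVS, an adaptor on the outer mitochondrial membrane, which starts the signal for type I interferon. LGP2 is a relative without the signalling domains that tunes the other sensors. TRIM25 and Riplet are ubiquitin ligases that help to activate RIG-I. ADAR1 edits adenosine to inosine in double-stranded RNA and so hides self RNA from MDA5, whereas PKR stops translation by phosphorylating eIF2 alpha when it binds such RNA. TLR3 detects double-stranded RNA inside endosomes. Most of these genes are themselves raised by interferon, so that their transcripts also report on past interferon signalling.

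Sequences at the gene starts are shown because interferon raises many of these genes through a short repeated element. In RefSeq start-site windows of GRCm38.p6, which cover 250 bases before and 50 after each start, 8 of the 9 genes were found, with 10 windows in all. Dhx58 had no window and was not searched. The core of the element was searched on both strands as GAAANNGAAA. It was present in windows of 3 of these 8 genes. Over all genes 3.44% of the 32851 windows held it, which is a share of windows and not of genes. Each match in the 3 genes is printed along the strand of its gene, with the matched letters in capitals.
Ddx58, chr4:40239804-40239833, minus strand: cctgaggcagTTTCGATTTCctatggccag
Ifih1, chr2:62646206-62646233, minus strand: gaagagaatcGAAACAGAAAccgatctg
Eif2ak2, chr17:78882535-78882564, minus strand: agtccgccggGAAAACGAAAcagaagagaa
The match lay on the opposite strand in Ddx58 and on the gene strand in the other two. It began at transcribed base 3 in Ddx58, 33 in Ifih1 and 19 in Eif2ak2, counted from 1 at the start site. A match is a description of letters, not of a bound site.

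None of the 9 genes passed the threshold of 0.05 on adjusted p between the groups, in the edgeR fit with Benjamini-Hochberg adjustment over every gene tested. Of all 13084 genes tested, 3.09% passed. The edgeR adjusted p of the 9 genes ran from 0.324 for Eif2ak2 to 0.971 for Dhx58. At an unadjusted p under 0.05 the count was also 0 of 9, against 16.2% of all genes tested, and DESeq2 and limma voom called 0 of the 9 genes as well. Values of the groups overlapped in all 9 genes, whereas they did not overlap in 21.3% of the genes tested. Fitted log2 fold changes, doxycycline against untreated, were above 0 in 6 of the 9 genes and below 0 in 3. Over all genes tested they were above 0 in 6641 and below 0 in 6443. The median of the 9 genes was 0.04, with 0.002 over all genes tested. For 7 of the 9 genes the 95% interval of the change stayed within 25% in either direction. It was wider for Dhx58 and Rnf135, the least abundant.

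The levels of the genes spanned an order of magnitude once divided by length. Per kilobase of exon, Eif2ak2 and Trim25 were highest in untreated libraries, with 28.4 ± 0.728 and 27.9 ± 1.47 CPM per kb (SD, n = 3), which did not differ beyond their spread. They were followed by Ddx58 with 21.3 ± 0.581 and Adar with 16.8 ± 0.384 CPM per kb. Mavs (10.8 ± 0.813) and Tlr3 (10.4 ± 0.706 CPM per kb) again lay within each other's spread. Below them stood Ifih1 with 5.37 ± 0.459, Rnf135 with 2.86 ± 0.327 and Dhx58 with 1.56 ± 0.132 CPM per kb. Doxycycline libraries had the same order on this scale, from 30.6 ± 2.2 CPM per kb for Eif2ak2 to 1.55 ± 0.354 for Dhx58. In these, the SD ranges of Ddx58 (22.2 ± 2.03) and Adar (18 ± 2.46 CPM per kb) overlapped at their edges. Neither mean lay within the SD range of the other gene. The 3 helicases were thus unequal in 4T1 cells. Ddx58 exceeded Ifih1 per kilobase by 3.81 to 4.3 times in the untreated libraries and by 4.03 to 4.2 times in the doxycycline libraries. Its excess over Dhx58 was 12.9 to 14.5 times in the former and 12.4 to 18.2 times in the latter.

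**Figure D1:**
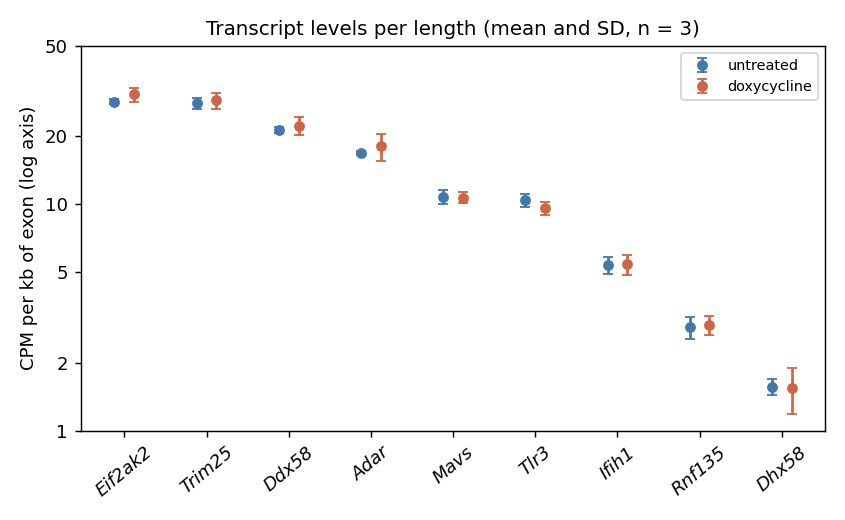
Transcript levels of the 9 RNA sensing genes as CPM per kilobase of exon, on a log axis, with untreated libraries in blue and doxycycline libraries in orange. Points are means and bars are SD over 3 libraries. Levels fall from Eif2ak2 at 28.4 to Dhx58 at 1.56 CPM per kb in untreated libraries, and the bars of the groups overlap for every gene.

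Among the helicases, Ddx58 (GRCm38 chromosome 4, 40203777 to 40239825, protein-coding) had 81, 81.1 and 84.9 CPM in untreated replicates 1 to 3. In doxycycline replicates 1 to 3 it had 82.8, 94.9 and 80.1 CPM. Only doxycycline replicate 2 stood above the untreated libraries, and doxycycline replicate 3 fell below all of them. The log2 fold change of Ddx58 was 0.06 (adjusted p 0.666 in edgeR, SE 0.06), with a 95% interval from -4.25% to 13.9% in the level.

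Ifih1 (chromosome 2, 62595618 to 62646255, protein-coding), the sensor of long double-stranded RNA, had 26.6, 30 and 31.5 CPM in the untreated libraries. In the doxycycline libraries it had 29, 33.1 and 26.9 CPM. The range of the doxycycline libraries nearly coincided with that of the untreated ones, with replicate 2 again the highest. The log2 fold change was 0.02 (adjusted p 0.949 in edgeR, SE 0.08), with an interval from -10.2% to 14.1%.

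Dhx58 (chromosome 11, 100694884 to 100704271, protein-coding) rested on low counts, from 105 to 175 per library. If each count is independent, counting alone gives each value an error of 7.56 to 9.76%. It had 3.73, 3.48 and 4.11 CPM in untreated libraries. Values of 4.15, 4.29 and 2.74 CPM were found in the doxycycline libraries. Doxycycline replicate 3 was the lowest of all 6 libraries and the other 2 the highest. Its log2 fold change was -0.02 (adjusted p 0.971 in edgeR, SE 0.18), and the interval, from -24% to 27.7%, was the widest of the 9 genes. Exons of Dhx58 overlap an antisense gene in the GENCODE annotation, and whether reads were counted by strand is not given in the sources used here.

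**Figure D2:**
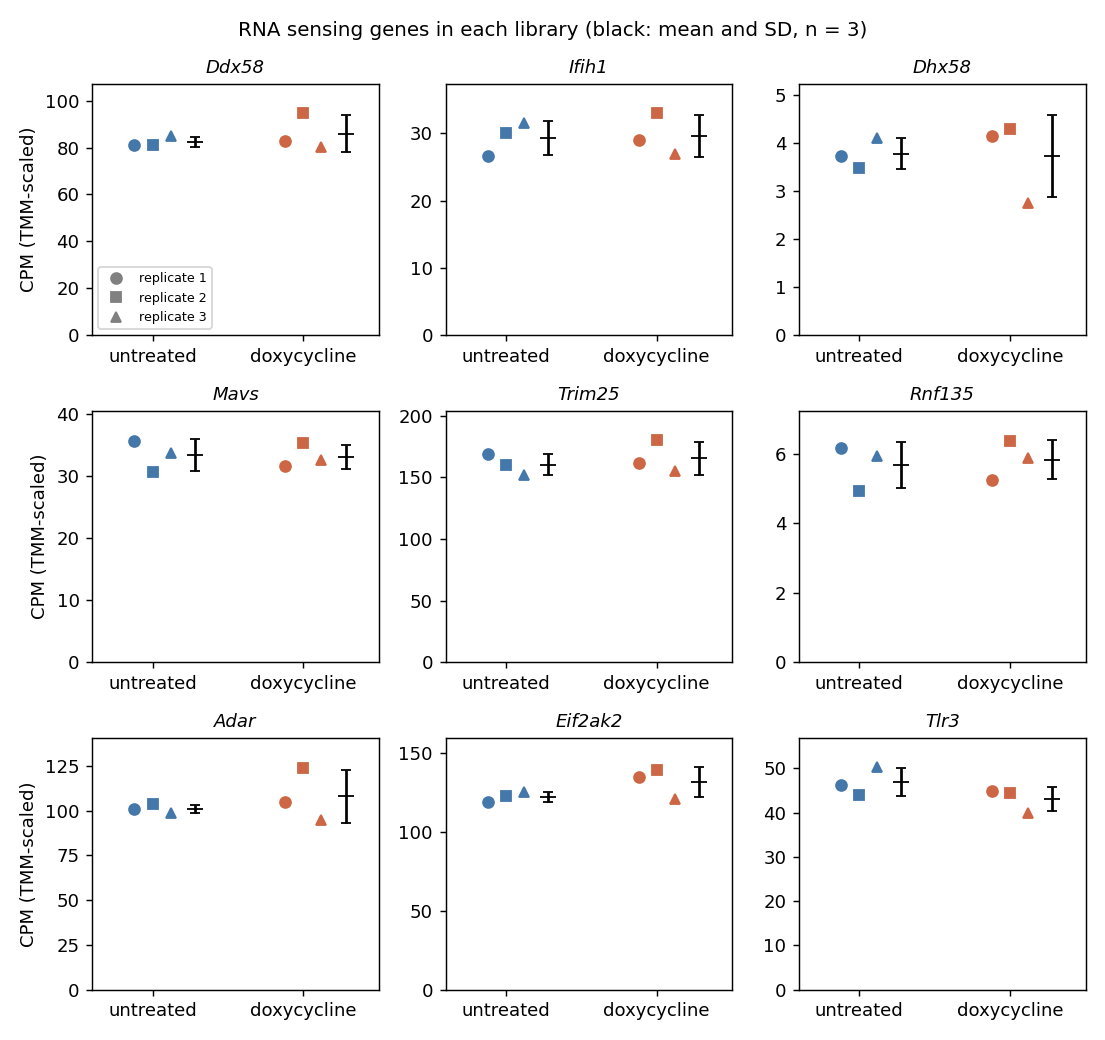
TMM-scaled CPM of each of the 9 genes in untreated (blue) and doxycycline (orange) libraries, with the marker giving the replicate and black bars the mean and SD (n = 3). Each axis starts at 0. In 7 of the 9 panels the orange square of doxycycline replicate 2 is the highest point, and in every panel the groups overlap.

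The adaptor Mavs (chromosome 2, 131234063 to 131248025, protein-coding) had 35.7, 30.7 and 33.8 CPM in untreated libraries and 31.5, 35.3 and 32.5 CPM in doxycycline libraries. The doxycycline values lay wholly inside the untreated range. With a log2 fold change of -0.01 (adjusted p 0.961 in edgeR, SE 0.07) and an interval from -10.7% to 10.1%, it was the gene with the smallest fitted change.

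Of the ligases, Trim25 (chromosome 11, 88999403 to 89020294, protein-coding) had 169, 160 and 152 CPM in untreated libraries. In doxycycline libraries it had 161, 181 and 155 CPM. Replicate 2 exceeded all untreated libraries, while the other 2 lay within their range. The log2 fold change was 0.05 (adjusted p 0.738 in edgeR, SE 0.06). Rnf135 (chromosome 11, 80183869 to 80199755, protein-coding) had 6.17, 4.95 and 5.93 CPM in untreated libraries and 5.25, 6.37 and 5.88 CPM in doxycycline libraries. It rested on 165 to 271 counts per library. Its log2 fold change was 0.04 (adjusted p 0.931 in edgeR, SE 0.14), with an interval from -16.1% to 25.4%. Per kilobase, Trim25 exceeded Rnf135 by 8.83 to 11.2 times in untreated and by 9.08 to 10.6 times in doxycycline libraries.

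Among the enzymes that act on double-stranded RNA, Adar (chromosome 3, 89714469 to 89753455, protein-coding) had 101, 103 and 98.9 CPM in untreated libraries. In doxycycline libraries it had 105, 124 and 94.9 CPM. The untreated values were tight, with a coefficient of variation of 2.28%, and the doxycycline values were spread on either side of them, with 13.7%. Its log2 fold change was 0.10 (adjusted p 0.546 in edgeR, SE 0.07), with an interval from -3.63% to 18.5%. Gene counts do not separate the constitutive and the interferon-inducible isoforms of ADAR1. Exons of Adar also overlap those of Chrnb2 on the other strand, which had 34 to 81 counts per library, far below the 3334 to 5063 counts of Adar. These totals do not give the number of reads in the shared exons.

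Eif2ak2 (chromosome 17, 78850504 to 78882572, protein-coding) came closest to a difference. It had 119, 123 and 125 CPM in untreated libraries and 135, 139 and 121 CPM in doxycycline libraries. Doxycycline replicates 1 and 2 exceeded every untreated library, and replicate 3 fell inside the untreated range. The log2 fold change was 0.11 (adjusted p 0.324 in edgeR, SE 0.05), and the interval from -0.194% to 16.3% just included no change. Its exons overlap a noncoding gene on the opposite strand.

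The endosomal sensor Tlr3 (chromosome 8, 45395665 to 45411075, protein-coding) had the lowest fitted value of the 9 genes. It had 46.3, 44 and 50.3 CPM in untreated libraries and 45, 44.4 and 40 CPM in doxycycline libraries. Replicate 3 lay below all untreated libraries, and the other 2 lay inside their range. The log2 fold change was -0.12 (adjusted p 0.395 in edgeR, SE 0.07), with an interval from -16.5% to 1.35%. Its exons overlap an antisense gene in GENCODE.

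**Figure D3:**
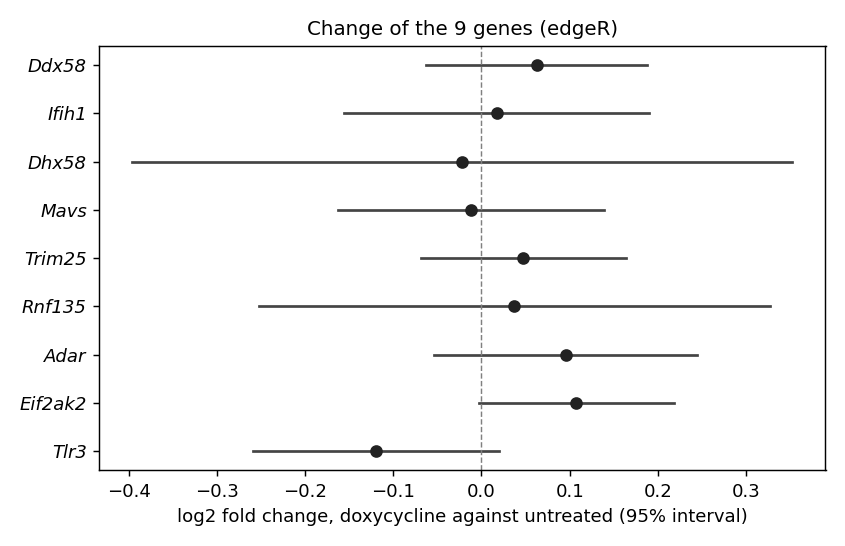
Log2 fold change of each of the 9 genes, doxycycline against untreated, from the edgeR fit over all genes. Dots are fitted values and lines are 95% intervals, and every line crosses the dashed line at 0, with Eif2ak2 (0.11) and Tlr3 (-0.12) the farthest from it.

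The sign of 7 of these 9 values changed when a single library was left out. Without doxycycline replicate 2, Ddx58 moved from 0.06 to -0.02, Ifih1 from 0.02 to -0.07, Trim25 from 0.05 to -0.02, Rnf135 from 0.04 to -0.03 and Adar from 0.10 to -0.02 in log2 fold change. Without doxycycline replicate 3, Adar rose to 0.18 and Eif2ak2 to 0.17, with edgeR adjusted p of 0.231 and 0.158. Eif2ak2 and Tlr3 were the 2 genes that kept their sign in all 14 alternative fits, from 0.07 to 0.17 for Eif2ak2 and from -0.16 to -0.07 for Tlr3. In none of these fits did any of the 9 genes pass the threshold.

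**Figure D4:**
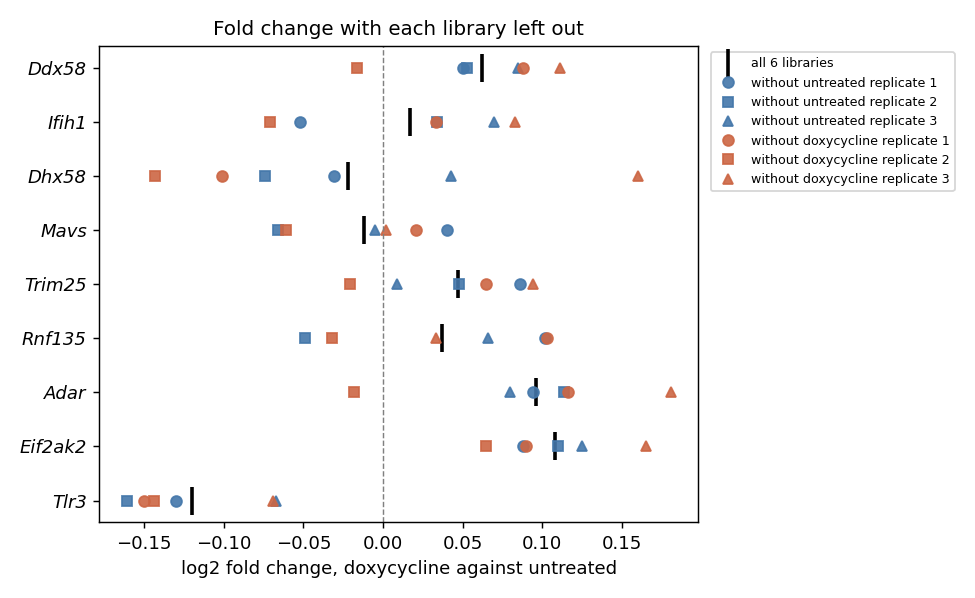
Log2 fold change of each gene with all 6 libraries (black bar) and with each library left out in turn (blue for untreated, orange for doxycycline, the marker giving the replicate). Orange squares, the fits without doxycycline replicate 2, lie left of the black bar in all 9 genes, while orange triangles, without replicate 3, lie right of it in 8.

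The doxycycline libraries differed among themselves. Doxycycline replicate 2 was higher than replicate 3 in all 9 genes, by 0.11 log2 units in Rnf135 to 0.63 in Dhx58. These libraries were singled out after their values were seen. Over all genes tested the median of this difference was 0.002, 50.6% of the genes were higher in replicate 2, and the middle of the distribution, from the 5th to the 95th percentile, ran from -0.41 to 0.47. The 9 genes lay between percentiles 73.5 and 97 of it. Replicate 2 was the highest of the 6 libraries in 7 of the 9 genes, against 22.2% of all genes tested, and replicate 3 the lowest in 4, against 15.5%.

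Interferon-stimulated genes outside the 9 moved with the same libraries. A list of 40 such genes had a mean of 3.84, 3.94 and 3.93 log2 CPM in untreated replicates 1 to 3, and of 4.01, 4.23 and 3.73 log2 CPM in doxycycline replicates 1 to 3. All 40 were higher in doxycycline replicate 2 than in replicate 3, with a median difference of 0.53 log2 units. The correlation over the 6 libraries with the mean of this list was highest for Adar (r = 0.95), Ddx58 (0.89), Eif2ak2 (0.89), Ifih1 (0.84), Dhx58 (0.80) and Trim25 (0.70). It was low for Tlr3 (0.28), Mavs (0.22) and Rnf135 (0.14). These are descriptions over 6 points that share libraries and scaling. The share of counts taken by the ribosomal RNA precursor Rn45s was also highest in doxycycline replicate 2, with 12.1%, against 8.83 to 11% in the other libraries. Its part in these values was not tested. None of the 40 genes passed the threshold between the groups, and 5 were higher and 3 lower at an unadjusted p under 0.05 (edgeR), a share close to the 16.2% of all genes tested. Their median log2 fold change was 0.09.

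**Figure D5:**
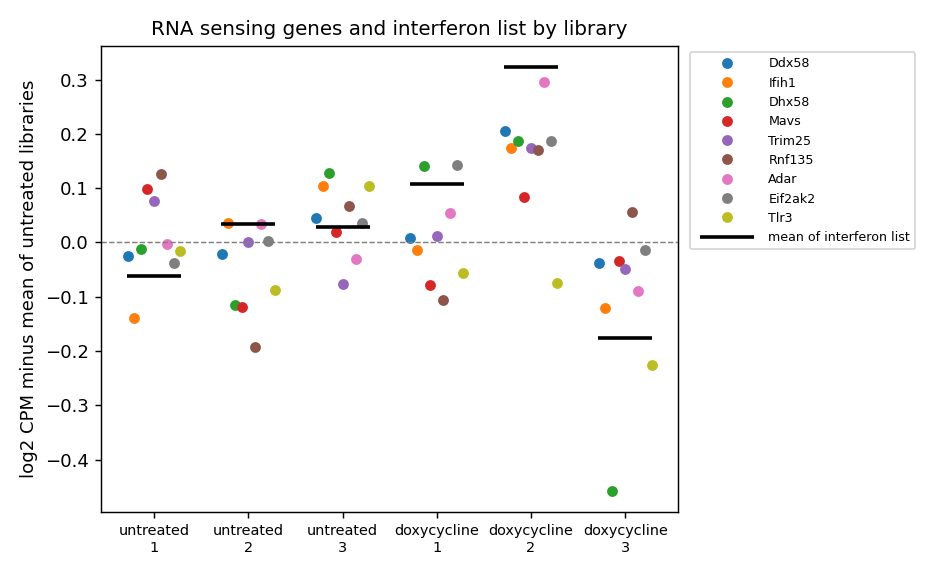
Log2 CPM of each of the 9 genes in each library, as the difference from the mean of the untreated libraries (points, shifted sideways for clarity), with the mean of 40 interferon-stimulated genes on the same scale (black bars). Most points and the bar are highest in doxycycline replicate 2, and the bar is lowest in doxycycline replicate 3.

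The genes also paired among themselves. Across the 6 libraries the closest pairs in log2 CPM were Mavs with Rnf135 (r = 0.94), Ddx58 with Adar (0.90) and Trim25 with Adar (0.87), while Trim25 with Tlr3 was the only pair below 0 (-0.08). For each gene the tested genes with the most similar pattern were found, and r ran from 0.979 to 0.997. These are the highest of 13084 values over 6 libraries, so their size was set by the choice. For Ifih1 they included Tbk1 (0.99), the kinase that phosphorylates IRF3 below MAVS. Tlr3 was matched by Tlr2 (0.98), another Toll-like receptor, and by Cryz. Adar was matched by Ccdc88c and Plscr3, Eif2ak2 by Lrrc45 and Bsn, and Trim25 by Trip10 and Lamc1. For Dhx58 they were Map1a and Snx33, for Mavs Slc26a1 and Eif2d, for Rnf135 Fbxo38 and Serhl, and for Ddx58 Slc25a18 and Creld1. The second gene of Ifih1 was Fermt3. The least abundant of these matches were Slc25a18, Slc26a1, Fermt3 and Creld1, with a mean of 0.15, 0.12, -0.19 and -0.53 log2 CPM.

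Around the 9 genes, a list of 102 genes of the same pathways had 93 that could be tested. Of these 0 passed the threshold (edgeR, 0 higher and 0 lower), 7 were higher and 2 lower at an unadjusted p under 0.05 (16.2% of all genes tested), and the groups did not overlap in 13 (21.3% of all genes tested). Both counts, out of 93, lay below the share over all genes. Their median log2 fold change was 0.02. DESeq2 called 2 of them and limma voom 0. By the smallest p of each role, the other RNA sensors were led by the helicase Ddx21, with 427, 416 and 408 CPM in untreated and 452, 456 and 456 CPM in doxycycline libraries (log2 fold change 0.12, adjusted p 0.126 in edgeR, SE 0.04). Prkra, the PKR activator PACT, had 14 ± 0.6 and 12.3 ± 0.596 CPM (SD, n = 3 each). In neither gene did the groups overlap.

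Regulators of the helicases and of MAVS had 11 of 28 tested members above 0, where 6641 of all 13084 genes tested lay above 0. The ligase Rnf5 had 25.2 ± 2.26 CPM in untreated and 21.9 ± 1.23 CPM in doxycycline libraries, and the deubiquitinase Usp4 had 116 ± 3.14 and 125 ± 6.62 CPM. Below the adaptor, 11 of 20 members lay above 0. Tbk1 had 50.5 ± 3.01 and 50.2 ± 4.26 CPM, and Irf3, the factor it activates, had 21.9 ± 1.2 and 22.7 ± 1.18 CPM (edgeR adjusted p 0.976 and 0.79). The kinase Ikbkb had 61.4 ± 3.23 and 66.7 ± 3 CPM, and Irf5 had 3.9 ± 0.0559 and 3.09 ± 0.28 CPM. Irf7, which amplifies interferon, had 11.9, 15.2 and 14 CPM in untreated and 16.2, 22.7 and 12.9 CPM in doxycycline libraries. Its highest value was in the library in which 7 of the 9 genes were highest (log2 fold change 0.34, adjusted p 0.403 in edgeR, SE 0.18). Ifnb1, the interferon at the end of the route, had 4, 0 and 2 counts in untreated and 2, 0 and 0 counts in doxycycline libraries, where 3 counts correspond to 0.0683 to 0.0944 CPM.

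Parts of the Tlr3 route were at or near 0 in both groups. Unc93b1, which carries endosomal Toll-like receptors to their compartment, had 2, 0 and 0 counts in untreated and 0, 2 and 0 counts in doxycycline libraries. Ripk3, the kinase of necroptosis, had 0 counts in 5 libraries and 2 counts in doxycycline replicate 2. The TLR3 adaptor Ticam1 (TRIF) was present, with 9.73 ± 0.332 and 9 ± 0.481 CPM (edgeR adjusted p 0.66), as was Wdfy1 with 44.2 ± 2.87 and 42.1 ± 0.406 CPM. Of the 7 genes of this route 5 could be tested.

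Genes of eIF2 alpha phosphorylation, which PKR shares with other kinases, had 8 of 11 members above 0 (6641 of all 13084 genes tested). Ppp1r15b, which directs the phosphatase of eIF2 alpha, had 214, 219 and 216 CPM in untreated and 242, 235 and 233 CPM in doxycycline libraries. The groups did not overlap, and the change was small (log2 fold change 0.13, adjusted p 0.131 in edgeR, SE 0.04). The kinases Eif2ak4 (GCN2) and Eif2ak3 (PERK) had 44.9 ± 1.2 and 49.2 ± 2.62 CPM, and 16.5 ± 1.48 and 15.7 ± 2.07 CPM.

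Among 17 tested genes listed under double-stranded RNA handling, a broad role that also takes in RNA decay, 11 lay above 0 (6641 of all 13084 genes tested). In 7 of the 17 the groups did not overlap, against 21.3% of all genes tested and 13 of 93 over the whole pathway list. None of the 17 passed the threshold. Dicer1 had 169 ± 4.97 and 187 ± 2.66 CPM (log2 fold change 0.14, edgeR adjusted p 0.0915), and Ttc37, a part of the SKI complex that feeds RNA to the exosome, had 73.8 ± 3.16 and 83.7 ± 3.43 CPM (0.18, edgeR adjusted p 0.0779). Outside this role, Zbp1, a sensor of Z-form RNA, was listed with the other RNA sensors. It had 2.89, 3.03 and 3.15 CPM in untreated and 3.02, 4.73 and 2.19 CPM in doxycycline libraries. Its high and low libraries were the same as those of Adar, Ddx58 and Dhx58.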

How the data were processed

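Total RNA of 6 libraries was depleted of ribosomal RNA and sequenced. The authors aligned reads to the mouse genome (mm10/GRCm38) with STAR and counted them per gene with featureCounts (Subread 1.6.2 in the submitters' processing notes). They deposited raw counts, with no normalization and replicates kept apart. Strand setting and treatment of multiply aligned reads are not given in the sources used here. How reads in exons shared by overlapping genes were counted is thus not known. Totals were 31653464 to 43631312 counts. Groups came from sample titles, columns were matched by library code and 0 columns were left unmatched.

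Genes kept by filterByExpr (13084 of 24421) were tested across the whole table with the quasi-likelihood test of edgeR 4.0.16 (R 4.3.3, robust, TMM scaling, group only), with Benjamini-Hochberg adjustment at 0.05. SE is the absolute log2 fold change over the square root of F, and 95% intervals use it with the degrees of freedom of the test. CPM used TMM-scaled totals, log2 CPM a prior count of 2, and levels per kilobase the union of exons in GENCODE M21 basic (GRCm38). Gene coordinates are from RefSeq GRCm38.p6. Replicate pairs differed by more than sampling noise (chi-square per degree of freedom 6.14 to 22.1), so each library was counted once. Counting errors cover sampling of reads only and take each count as independent. They would be larger if both reads of a pair were counted. Most nonzero counts of the pathway genes too low to test were even, such as 4, 2 and 2 in Ifnb1. Odd counts were 1 in Nlrp1b and 3 in Trim31 and in Adarb2. Whether both reads of a pair were counted was not tested, and counts may exceed the number of sequenced fragments.

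Alternatives were other scalings, other filters on low counts, a replicate block, fits without 1 library, DESeq2 1.42.0 and limma voom (limma 3.58.1). The fit was tested on simulated data. It called 86.6% of changes of 1 log2 unit and 65.7% of changes of 0.5, and 8.59% of its calls were false. Changes as small as those fitted for the 9 genes were not simulated. The 9 genes and the lists were chosen with earlier results of these data known. Named around the 9 genes were every pathway gene past the threshold and, where fewer than 2 passed in a role, the 2 with the smallest p, the 2 tested genes most similar to each of the 9, and Ifnb1, Irf3, Irf7, Tbk1, Zbp1, Eif2ak3 and Ticam1. One further gene of this rule is not reported here.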

Additional observations from a re-analysis of the deposited data

How the results depend on the processing

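The count of called RNA sensing genes was 0 in all 14 alternatives. Other scalings, both other filters (none, or at least 10 counts in every library), DESeq2, limma voom and the replicate block kept the sign of all 9 genes. The replicate block called 418 genes of all tested, against 404, and gave a median log2 fold change of 0.039 over the 9 genes and changed none of their calls. Same-numbered libraries deviated from their group means with correlations of -0.04, -0.004 and 0.02, so no pairing by number was visible. With 3 libraries per group this cannot show whether they were handled together. Signs changed only when a library was left out. Without untreated replicate 1, Ifih1 was -0.052 and Mavs 0.040 in log2 fold change. Rnf135 was -0.049 without untreated replicate 2, and Dhx58 0.043 without untreated replicate 3. Mavs was 0.021 without doxycycline replicate 1. Without doxycycline replicate 2, Ddx58 was -0.016, Ifih1 -0.071, Trim25 -0.021, Rnf135 -0.032 and Adar -0.018. Without doxycycline replicate 3, Dhx58 was 0.160 and Mavs 0.002. With a library left out, values ran up to 0.111 for Ddx58, 0.083 for Ifih1, 0.103 for Rnf135 and 0.181 for Adar, and down to -0.143 for Dhx58 and -0.066 for Mavs. The median of the 9 genes ran from -0.032 to 0.094 in these fits.

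Over all genes tested, 121 were called higher and 283 lower, 210 and 439 without a filter, and from 44 to 269 and from 116 to 487 with a library left out, lowest without untreated replicate 3 and highest without doxycycline replicate 2. In total, 199, 221 and 160 were called without untreated replicates 1, 2 and 3, and 563, 756 and 215 without doxycycline replicates 1, 2 and 3. Pathway genes called were 0 in the main test, 2 without a filter (Ttc37 and Irf7), 2 with DESeq2 (Ddx21 and Dicer1) and from 0 to 6 with a library left out. The 6, all without doxycycline replicate 2, were Ikbke (-0.24), Ppp1r15b (0.13), Ddx21 (0.12), Eif2s1 (0.14), Dicer1 (0.15) and Abce1 (0.13). The cause was not tested. Counting error was largest for Dhx58 and Rnf135. The doxycycline values of Dhx58 spread beyond it, with a coefficient of variation of 22.9% against 8.67% from counting alone.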
